A study of Arabidopsis thaliana with 18 samples.

Results

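Root RNA of 2 transgenic Arabidopsis thaliana lines, C4 and B2, was compared under 150 mM NaCl. The comparison was set by the labels alone: 3 libraries labelled C4 at 150 mM were tested against 3 libraries labelled B2 at 150 mM, which are 6 of the 18 libraries of the series. Per the labels, both lines carry the isoprene synthase coding sequence of Eucalyptus globulus, with its own transit peptide, behind the rbcS-1A promoter of the Rubisco small subunit gene RBCS1A, and both were chosen among several transformants because they emitted the most isoprene. The groups used beside them were C4 and B2 at 0 mM NaCl with 3 libraries each, and WT roots without the transgene, with 2 libraries at 150 mM and 3 at 0 mM. Each line stands for 1 transformation event, so a difference between C4 and B2 cannot be told apart from what else differs between these 2 events. An empty vector line that the labels describe was not analysed here, and the sources used here do not say how the plants at 150 mM were raised.

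Isoprene is a small volatile hydrocarbon made in plastids from dimethylallyl diphosphate, an end product of the methylerythritol phosphate (MEP) pathway. Arabidopsis has no isoprene synthase of its own. Salt reaches a root as osmotic stress and as sodium ions: abscisic acid (ABA) then drives dehydration genes through PYR/PYL receptors and PP2C phosphatases, while SOS1 and HKT1 move sodium. Root hairs, the outgrowths of epidermal cells called trichoblasts, are built by bHLH regulators such as RHD6 and RSL4 and by cell wall proteins such as expansins and extensins. Both lines carry the same transgene, so the comparison asks what separates the lines under salt apart from its presence.

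The 6 libraries held 54233853 to 79589103 counted reads, with 21291 to 21589 genes detected. Marker genes of root cell types were detected in all 6 libraries: all 5 trichoblast, all 6 endodermis and all 5 xylem markers, for example, had reads. Nothing in the labels ties the libraries of a group to different plants, so the p-values reflect a library-to-library spread that could be technical. In bulk roots, fewer cells of a type and less RNA per cell cannot be told apart. A pair of libraries outside the comparison went against their labels, and they enter the estimate of the spread, the values at 0 mM and the WT values at 150 mM given below: library 3 of B2 at 0 mM had 0.05 CPM (read counts scaled to library size) of MRD1 and 96.8 CPM of ANNAT3, and library 2 of WT at 150 mM had 33.4 CPM of MRD1. MRD1, a gene on chromosome 1 that overlaps the meiotic gene HEI10 on the other strand, was at 44.0, 41.8 and 43.6 CPM in C4 and 43.1, 38.2 and 39.5 CPM in B2 at 150 mM, against 1.72 CPM in library 1 of WT. All 6 libraries of the comparison thus had the MRD1 level of the lines.

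Across all genes, the lines differed little relative to the spread between libraries. Of 21367 genes tested with edgeR's quasi-likelihood test over 17 libraries, 0 genes (0% of those tested) passed a Benjamini-Hochberg adjusted p of 0.05 in either direction. At an unadjusted p under 0.05 stood 1404 genes (6.57%), 674 of them (3.15%) higher and 730 (3.42%) lower in C4 than in B2. All 3 C4 libraries lay above all 3 B2 libraries for 1205 genes (5.64%) and below them for 1654 genes (7.74%), and the median log2 difference over all genes was 0.00. DESeq2, run as an alternative test on the same libraries, called 89 genes (0.387%), 66 higher (0.287%) and 23 lower (0.1%). Without library 3 of B2 at 0 mM and library 2 of WT at 150 mM, edgeR called 2 genes, ANNAT3 and BCS1, both higher in C4. Unless stated otherwise, the genes below did not pass edgeR's adjusted threshold with all 17 libraries. Many of them are among the 89 that DESeq2 called. Examples are AT5G38310 (DESeq2 adjusted p = 6.85e-06), WRKY30 (DESeq2 adjusted p = 0.00297) and ABCG40 (DESeq2 adjusted p = 0.0158), all higher in C4. PERK3 (DESeq2 adjusted p = 0.00604) was lower.

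Among genes with at least 1 CPM in every library of either line, the widest gap was at ANNAT3, which encodes annexin 3 of the calcium-dependent phospholipid-binding annexin family. ANNAT3 had 59.3, 161.8 and 99.9 CPM in the 3 C4 libraries, against 1.11, 0.82 and 0.46 CPM in the 3 B2 libraries. WT at 150 mM had 177 and 76.0 CPM, so the C4 libraries lay around the WT level and the B2 libraries far under it. The log2 difference was 7.05 ± 1.501 (SE), or 132-fold, with an edgeR adjusted p of 0.358 when all 17 libraries share the estimate of the spread, which includes library 3 of B2 at 0 mM at 96.8 CPM. When only the C4 and B2 libraries at 150 mM were in the fit, the adjusted p was 0.00535; without both libraries that go against their labels it was 0.000124, and by DESeq2 5.65e-06. It was the single gene with at least 1 CPM in every C4 library whose lowest C4 value was at least 8 times the highest B2 value, and 0 genes showed the opposite. At 0 mM, ANNAT3 had 179.6, 89.0 and 84.8 CPM in C4, against 1.08, 1.36 and 96.8 CPM in B2. The log2 difference at 0 mM was 1.83 with all libraries and, without both libraries that go against their labels, 6.59 with an edgeR adjusted p of 0.00147. The difference between the line differences was then 0.47 ± 0.62 (SE), against 5.21 with all libraries (edgeR adjusted p = 0.997).

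ANNAT3 (AT2G38760) lies on the plus strand of chromosome 2 at 16200944 to 16202669 (TAIR10). The genes on both sides of it did not share the gap. Of 16 tested neighbours, 8 on each side, the log2 differences ran from -0.78 to 1.59, and the lowest unadjusted p was 0.0257 (edgeR adjusted p = 0.722). ANNAT4, the next gene upstream and another annexin, had 104, 286 and 161 CPM in C4, against 193, 261 and 220.0 CPM in B2, and these ranges overlapped. The other annexins tested, ANNAT1, ANNAT2 and ANNAT7, had log2 differences of -0.00, 0.06 and 0.13. The 300 bases before the annotated start of ANNAT3 are shown as the promoter side of this gene. They come from the RefSeq genome TAIR10.1, chr2:16200644-16200943, plus strand, and hold no capitals because the motif TTGAC, searched on both strands, is not among these letters.
ANNAT3: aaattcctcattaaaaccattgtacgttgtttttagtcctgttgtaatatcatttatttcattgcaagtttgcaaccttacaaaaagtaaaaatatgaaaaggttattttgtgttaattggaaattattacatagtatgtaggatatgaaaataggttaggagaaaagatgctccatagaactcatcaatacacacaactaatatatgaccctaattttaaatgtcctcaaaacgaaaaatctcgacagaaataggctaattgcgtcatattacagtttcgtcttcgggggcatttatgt

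**Figure D1:**
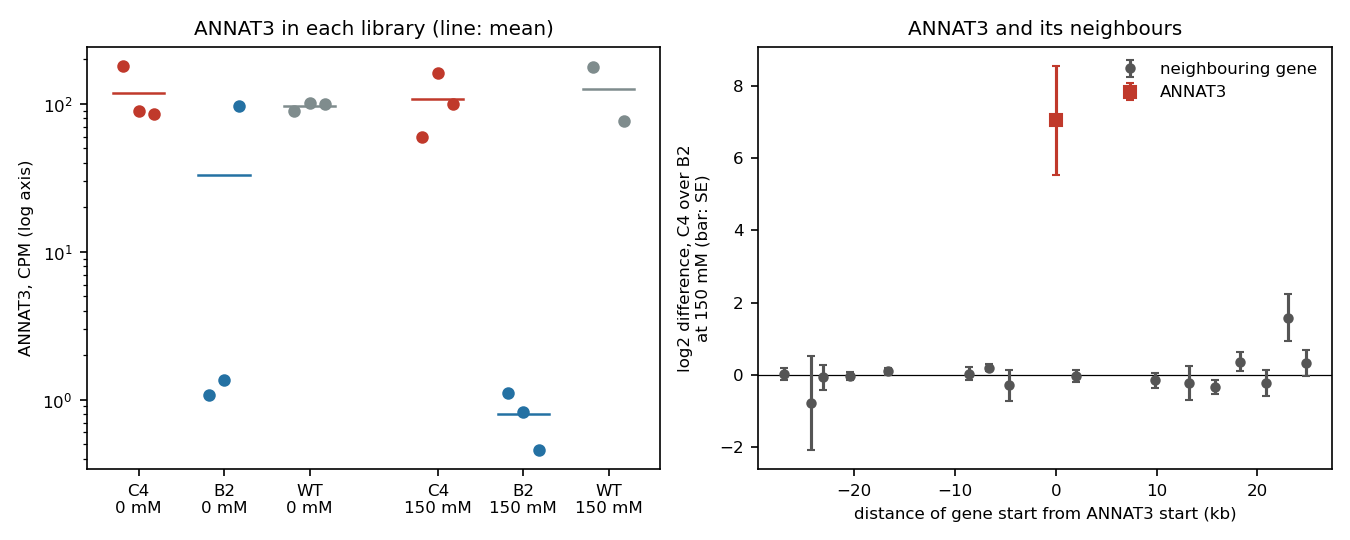
Left, ANNAT3 in CPM on a log axis for each library (points) with the group mean (line) at 0 and 150 mM NaCl. Right, log2 difference of C4 over B2 at 150 mM with its SE for ANNAT3 and its 16 tested neighbours by distance of the gene start in kb. All 3 B2 libraries at 150 mM sit at or below 1.11 CPM while library 3 of B2 at 0 mM sits at 96.8 CPM, and ANNAT3 stands at 7.05 while the neighbours lie between -0.78 and 1.59.

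Beyond ANNAT3, the genes that best separated the lines were mostly higher in C4, and 5 of them encode transcription factors. Of the 20 genes with the lowest p, 15 were higher and 5 lower in C4, with edgeR adjusted p between 0.170 and 0.343. In 19 of them the 3 C4 and 3 B2 libraries did not overlap. DESeq2 called each of the 20. The lowest p was that of BCS1 (AT3G50930, chromosome 3, 18929526 to 18932181), an AAA ATPase of the mitochondrial outer membrane that is known to be induced by stress. BCS1 had 54.7, 32.4 and 64.5 CPM in C4, against 19.0, 13.2 and 15.4 CPM in B2. Every C4 library was above every B2 library and above both WT libraries, which had 28.3 and 16.6 CPM. The log2 difference was 1.67 ± 0.25 (SE), with an edgeR adjusted p of 0.170. The adjusted p was 0.0475 without both libraries that go against their labels, 0.00399 without library 2 of C4 and 4.86e-07 by DESeq2. At 0 mM the same gene had 23.8, 22.9 and 20.9 CPM in C4, against 29.9, 23.5 and 30.9 CPM in B2, a log2 difference of -0.32.

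Of the 5 transcription factors, WRKY30, a defence-related one, had 14.6, 8.85 and 17.64 CPM in C4, against 2.77, 4.81 and 1.25 CPM in B2 (log2 difference 2.22 ± 0.48 SE). WRKY46, of the same family, had 4.35, 4.95 and 6.16 CPM in C4, against 2.30, 2.68 and 1.64 CPM in B2 (log2 difference 1.22). MYB15, a regulator of lignin and defence genes, had 28.6, 17.97 and 32.3 CPM in C4, against 9.52, 8.43 and 14.8 CPM in B2 (log2 difference 1.27). In these 3, every C4 library lay above every B2 library. ERF14, an ethylene response factor, had 3.70, 0.80 and 4.38 CPM in C4, against 0.33, 0.27 and 0.03 CPM in B2. BHLH92, a bHLH factor known to respond to salt, had 7.04, 0.49 and 9.09 CPM in C4, against 0.10, 0.06 and 0.06 CPM in B2. For both, library 2 of C4 was far below its fellow libraries, yet above every B2 library.

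The other higher genes included enzymes, receptors and transporters. CRK32, a cysteine-rich receptor-like kinase, had 5.13, 3.503 and 6.70 CPM in C4, against 1.89, 1.49 and 1.499 CPM in B2. XTR6, a cell wall xyloglucan endotransglycosylase, had 17.58, 12.4 and 18.4 CPM in C4, against 10.1, 9.07 and 10.7 CPM in B2. The UDP-glycosyltransferase gene AT1G05675 had 6.99, 0.95 and 8.79 CPM in C4, against 0.76, 0.55 and 0.46 CPM in B2. LHT7, a member of the lysine and histidine transporter family, was the gene with overlap: 7.06, 0.55 and 8.92 CPM in C4, against 0.60, 0.53 and 0.13 CPM in B2. PP2-B13, of the phloem protein 2 family, the acyltransferase gene AT2G32020, the cupredoxin gene AT4G39830 and the uncharacterized genes AT5G38310 and AT4G12735 completed the 15. In all 15, libraries 1 and 3 of C4 exceeded both WT libraries at 150 mM, and in 11 all 3 C4 libraries did. Without salt the 15 had a median log2 difference of -0.14, against 1.67 under salt. The 15 were chosen for C4 values above B2 at 150 mM. High C4 values beside WT and a smaller difference without salt partly follow from that choice.

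The 5 genes lower in C4 were of low level. PERK3, a proline-rich extensin-like receptor kinase, had 1.42, 0.95 and 1.08 CPM in C4, against 2.74, 2.97 and 2.95 CPM in B2 (log2 difference -1.33). AT2G23400, annotated as an undecaprenyl pyrophosphate synthetase family gene and thus as an enzyme of long-chain isoprenoids, had 0.34, 0.25 and 0.19 CPM in C4, against 1.39, 1.48 and 1.26 CPM in B2 (log2 difference -2.41). In both, the 3 B2 libraries lay within a narrow range above every C4 library. AT3G12540 had 3.71, 3.77 and 3.20 CPM in C4, against 6.67, 5.86 and 5.55 CPM in B2, and the acyltransferase gene AT1G31490 had 2.33, 2.90 and 1.77 CPM in C4, against 5.01, 4.70 and 6.23 CPM in B2. The lectin gene AT1G07460 had 0, 0 and 0 reads in C4, against 32, 2 and 12 reads in B2. In 4 of the 5, all C4 libraries also lay below both WT libraries at 150 mM, which partly follows from choosing genes low in C4.

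**Figure D2:**
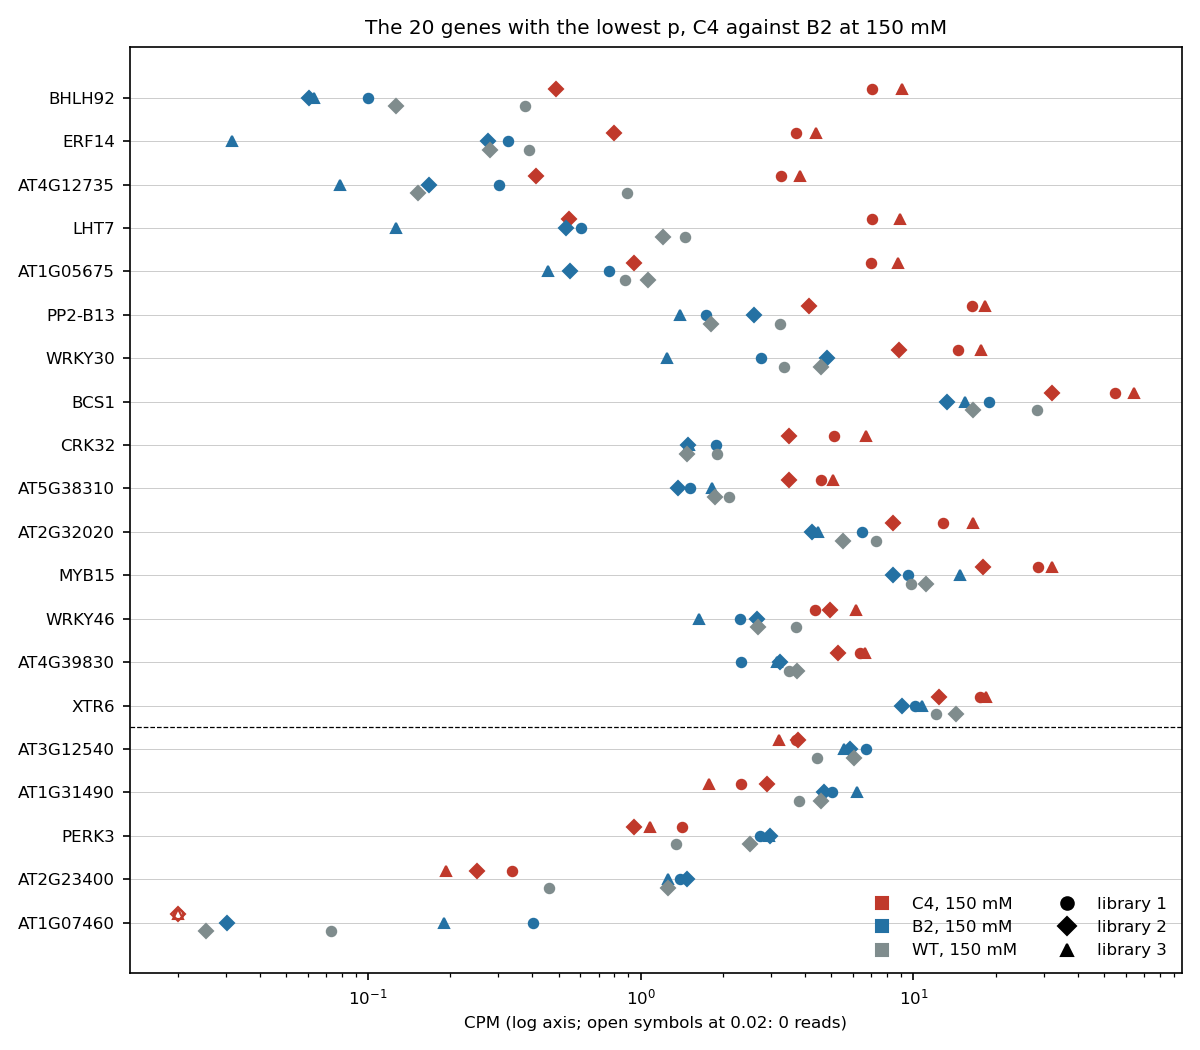
CPM on a log axis at 150 mM for the 20 genes with the lowest p, 15 higher in C4 above the dashed line and 5 lower below it, by line (colour) and library (symbol). In 14 of the 15 higher genes library 2 of C4, drawn as a diamond, lies below both other C4 libraries.

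WRKY factors bind the motif TTGAC, known as the W box core. It was found on at least 1 strand in the 300 bases before the start of 13 of the 15 higher genes (86.7%), beside 50.9% of the same window in 21362 genes. The share was 72.2% for 36 genes called higher when library 2 of C4 was left out, and 58.3% for 12 heat shock genes, both described below. Whether WRKY factors act on these genes was not tested. BCS1 is shown as the gene with the lowest p, from TAIR10.1, chr3:18929226-18929525, plus strand, with its 2 matches in capitals. A match says only that these letters are present.
BCS1: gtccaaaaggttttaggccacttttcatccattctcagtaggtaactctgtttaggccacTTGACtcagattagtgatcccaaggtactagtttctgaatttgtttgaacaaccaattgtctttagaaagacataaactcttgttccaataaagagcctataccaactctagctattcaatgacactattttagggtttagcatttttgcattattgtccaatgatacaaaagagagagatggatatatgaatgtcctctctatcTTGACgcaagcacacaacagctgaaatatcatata

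The 3 C4 libraries resembled each other about as closely as the 3 B2 libraries did. Library 2 of C4 lay nearer to a B2 library than to its own group, and library 1 of B2 lay nearer to a C4 library. The SD of log2 ratios over 21367 genes was 0.700 between C4 libraries 1 and 2, 0.559 between 1 and 3, and 0.641 between 2 and 3. Within B2 it was 0.600 to 0.697, and between C4 and B2 libraries 0.589 to 0.731. The smallest of the values between lines, 0.589, was between library 2 of C4 and library 2 of B2. It was below both values that library 2 of C4 had with its own group. Library 1 of B2 had 0.621 with library 3 of C4, below its 0.697 and 0.632 with libraries 2 and 3 of B2. Pearson's r of log2 CPM across genes, which are not independent replicates, was 0.972 to 0.981 within C4. At 10 CPM or more on average, where counting error is smaller, the SD within C4 was 0.208 between libraries 1 and 3, 0.353 between 1 and 2, and 0.312 between 2 and 3, and it was 0.267 between library 2 of C4 and library 2 of B2. At that level library 1 of B2 had 0.291 and 0.296 with libraries 1 and 3 of C4, against 0.436 and 0.362 with libraries 2 and 3 of B2. The 3 C4 values of a gene spanned more than 2-fold in 2854 genes (13.4%), against 3379 genes (15.8%) for B2.

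Library 2 was the C4 library that most often stood below the others. It lay more than 2-fold below both other C4 libraries in 636 genes and more than 2-fold above both in 302. For library 1 these counts were 361 and 303, and for library 3 they were 249 and 230. On the third principal component of the 17 libraries, which held 7.46% of the variance, libraries 1 and 3 of C4 at 150 mM scored 48.2 and 46.5, and library 2 scored -2.19. The B2 libraries at 150 mM scored 6.24, -25.9 and -29.3. The first component, 41.6% of the variance, separated the salt concentrations and set library 1 of B2 apart, at 10.9 against 39.9 to 69.0 for the other 5 libraries of both lines at 150 mM.

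The genes that separated library 2 from libraries 1 and 3 were named after their values were seen. Among genes with at least 5 CPM on average, the widest gaps were at the glutathione transferase gene GSTU11, with 19.3, 0.44 and 19.2 CPM in C4, against 1.60, 0.62 and 0.84 CPM in B2, and at the transporter gene ABCG40, with 78.6, 3.02 and 98.0 CPM in C4, against 8.85, 3.85 and 4.12 CPM in B2. GAD4, a glutamate decarboxylase, had 48.8, 5.72 and 76.8 CPM in C4, against 8.21, 6.33 and 9.28 CPM in B2. In all 3 genes, library 2 of C4 was within or below the range of B2. Genes in which library 2 stood above both others included the dehydration genes COR15A, with 4.79, 27.6 and 12.4 CPM in C4, against 2.78, 14.7 and 6.15 CPM in B2, and RD20. The list of ABA and dehydration genes had a median 0.84 log2 units higher in library 2 than in the mean of libraries 1 and 3, and the heat shock list 0.70 units lower.

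Leaving out library 2 of C4 changed the number of calls more than leaving out any other library. With it left out, edgeR called 37 genes (0.173%), 36 higher (0.169%) and 1 (ARR7, a type-A cytokinin response regulator) lower in C4, with folds of 1.803 to 104 among the higher ones. Leaving out any other of the 6 libraries gave 0 calls. Of the 37, DESeq2 on all libraries also called 33. Library 2 of C4 lay at or below the highest B2 library in 20 of the 36 and below both other C4 libraries in 36. The 36 were chosen for high values in libraries 1 and 3 of C4. This fit was singled out because leaving out library 2 changed the calls most. Low values of library 2 in these genes, and the medians below, therefore partly follow from the choice. Libraries 1 and 3 of C4, which the choice favoured, also exceeded both WT libraries in 36 of 36 genes, and library 2 of C4 did in 16. That excess of libraries 1 and 3 is partly fixed by the choice as well. As a median over the 36 genes, log2 CPM relative to the B2 mean was 2.29, 0.30 and 2.59 in C4 libraries 1, 2 and 3, and 0.20 and 0.19 in the WT libraries. The 36 included BCS1, BHLH92, ERF14, MYB15, GSTU11, ABCG40, GAD4, the mitochondrial alternative oxidase gene AOX1D and the kinase gene MAPKKK19. AOX1D had 11.7, 1.39 and 13.7 CPM in C4, against 0.79, 0.70 and 1.28 CPM in B2.

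**Figure D3:**
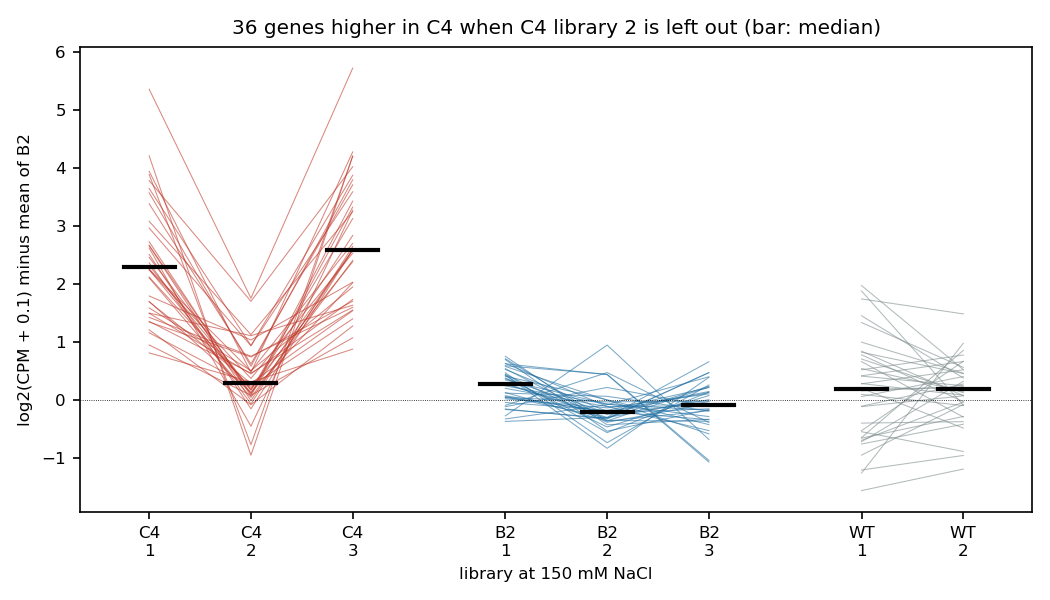
log2(CPM + 0.1) minus the mean of the B2 libraries for the 36 genes called higher in C4 when library 2 of C4 was left out, by library at 150 mM, with lines joining the values of a gene and black bars at the median. The medians are 2.29 and 2.59 in C4 libraries 1 and 3, 0.30 in library 2, and 0.20 and 0.19 in WT.

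Small heat shock proteins hold partly unfolded proteins in solution, and HSFA2 is a transcription factor that drives their genes in heat. Of 12 heat shock genes tested, 7 were higher in C4 at an unadjusted p under 0.05 and 0 lower, beside 3.15% and 3.42% of all genes, with a median log2 difference of 1.17, against 0.00 over all genes. None passed the adjusted threshold by edgeR with all libraries. HSP17.6A and HSP17.4 passed it by DESeq2 (adjusted p = 0.0128 and 0.0272). Both also passed by edgeR without library 2 of C4 (adjusted p = 0.00405 and 0.0438) and are among the 36 genes above. In 3 of the 12 all C4 libraries lay above B2, and in 1, HSFA1D, all lay below it (log2 difference -0.15). HSP17.6A, a cytosolic small heat shock protein, had 8.21, 1.21 and 8.66 CPM in C4, against 1.40, 1.17 and 1.51 CPM in B2 (log2 difference 2.14). HSP17.4 had 11.7, 5.63 and 13.9 CPM in C4, against 5.48, 4.11 and 3.03 CPM in B2 (log2 difference 1.30). HSP18.2 had 6.65, 8.60 and 6.02 CPM in C4, against 4.42, 4.15 and 4.56 CPM in B2 (log2 difference 0.70). HSP17.4 and HSP18.2 did not overlap between the lines, while HSP17.6A in library 2 of C4 was at the B2 level.

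The 7 came from several compartments. ATHSP22.0, of the endomembrane system, had 1.82, 1.23 and 1.05 CPM in C4, against 0.17, 0.17 and 0.00 CPM in B2. The mitochondrial HSP23.6-MITO had 1.96, 0.24 and 2.85 CPM in C4, against 0.54, 0.03 and 0.38 CPM in B2. HSFA2 itself had 10.9, 7.14 and 13.9 CPM in C4, against 9.16, 4.06 and 2.37 CPM in B2 (log2 difference 1.03). Of the 7, library 2 of C4 was below both other C4 libraries in 5 and at or below the highest B2 library in 4. The large chaperones were closer between lines: HSP101 had 61.5, 38.8 and 57.5 CPM in C4, against 62.9, 33.7 and 37.1 CPM in B2, and HSP70 had 362, 368 and 394 CPM in C4, against 463, 275 and 293 CPM in B2. For both, library 1 of B2 was higher than every C4 library. At 0 mM the list median was -0.16, with 0 genes higher and 1 lower at an unadjusted p under 0.05 (0.73% and 0.543% of all genes at 0 mM), and the difference between the line differences reached an unadjusted p under 0.05 in 5 of the 12, beside 3.63% of all genes, with 0 adjusted. These members other than those of the 20 lowest p were chosen after their values were seen.

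The motif GAANNTTC, part of the heat shock element that HSF proteins bind, was in the 300 bases before the start of 4 of the 12 genes (33.3%), beside 11.4% of 21362 genes. It was also in 26.7% of the 15 higher genes with the lowest p. Of the 36 genes called higher without library 2 of C4, 25.0% had it. It is palindromic, so both strands read alike. Among the 7 genes it was found in HSP17.4 and HSFA2, which are shown with their matches in capitals, from TAIR10.1, chr3:16984868-16985167 on the minus strand for HSP17.4 and chr2:11135324-11135623 on the plus strand for HSFA2.
HSP17.4: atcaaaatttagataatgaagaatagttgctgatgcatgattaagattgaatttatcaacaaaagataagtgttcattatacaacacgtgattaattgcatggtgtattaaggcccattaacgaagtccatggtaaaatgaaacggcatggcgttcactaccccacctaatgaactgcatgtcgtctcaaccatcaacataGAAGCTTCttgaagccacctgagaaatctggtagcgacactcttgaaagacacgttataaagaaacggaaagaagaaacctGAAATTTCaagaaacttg
HSFA2: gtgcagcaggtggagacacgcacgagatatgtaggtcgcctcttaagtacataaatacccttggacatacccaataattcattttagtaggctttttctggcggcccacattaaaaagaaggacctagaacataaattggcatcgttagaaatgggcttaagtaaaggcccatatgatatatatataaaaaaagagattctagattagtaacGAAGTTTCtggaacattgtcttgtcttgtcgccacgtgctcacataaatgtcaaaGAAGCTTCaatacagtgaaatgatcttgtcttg

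Jasmonate, ethylene and salicylate are hormones of wounding and defence, and 0 members of their lists passed the adjusted threshold by edgeR. Of 23 jasmonate genes, 6 were higher in C4 at an unadjusted p under 0.05 and 0 lower, beside 3.15% and 3.42% of all genes, with a median log2 difference of 0.32. LOX4, a 13-lipoxygenase at the start of jasmonate synthesis, had 11.2, 2.48 and 14.2 CPM in C4, against 3.10, 1.23 and 3.01 CPM in B2. LOX3, its close relative, had 6.65, 1.14 and 9.36 CPM in C4, against 1.98, 0.84 and 1.96 CPM in B2. The repressor gene JAZ5, a target of jasmonate, had 13.3, 12.0 and 16.7 CPM in C4, against 8.78, 5.13 and 9.12 CPM in B2. Of the 6, JAZ5 was the single one without overlap, and in 4 library 2 of C4 was at or below the highest B2 library. The median was 0.50 without library 1 of C4, 0.11 without library 2 of C4 and 0.16 without library 2 of B2, and 2 members were past that p without library 3 of C4.

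Ethylene synthesis is limited by ACC synthases, whose genes differed between the lines in both directions at an unadjusted p under 0.05. ACS2 had 26.2, 14.0 and 29.97 CPM in C4, against 8.09, 9.60 and 13.4 CPM in B2 (log2 difference 1.17). ACS6 had 68.6, 74.9 and 81.9 CPM in C4, against 41.1, 46.9 and 46.8 CPM in B2 (log2 difference 0.74). Both were free of overlap, and ACS6 was as high in library 2 of C4 as in the others. ACS8 had 2.30, 0.32 and 2.75 CPM in C4, against 0.23, 0.18 and 0.36 CPM in B2. ACS9, an ACC synthase gene outside the list and picked with its values in view, went the other way, with 0, 0 and 0 reads in C4, against 24, 32 and 12 reads in B2 (adjusted p = 0.403 by edgeR and 0.0272 by DESeq2). EIN2, the membrane protein that passes the ethylene signal on, was lower: 165, 197 and 182 CPM in C4, against 218, 216 and 249 CPM in B2. Of 19 ethylene genes on the list, ACS2, ACS6 and ACS8 were higher and EIN2 lower at an unadjusted p under 0.05, beside 3.15% and 3.42% of all genes, and the list median was -0.00, with 9 differences above 0 and 10 below. Without library 1 of C4 or library 3 of B2, 0 members were lower at that p, and without library 2 of B2 2 were.

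Among 14 salicylate and defence genes, 3 were higher at an unadjusted p under 0.05 and 0 lower, beside 3.15% and 3.42% of all genes, with a median of -0.11 and 8 of the 14 differences below 0. Without library 3 of C4 or library 3 of B2, 1 was higher, and the median was 0.04 without the last of these. SARD1, a factor that turns on salicylate synthesis, had 1.47, 1.26 and 1.85 CPM in C4, against 0.36, 0.20 and 0.54 CPM in B2 (log2 difference 2.06). It did not overlap between the lines, and library 2 of C4 was close to its fellows. WRKY53 had 9.09, 11.9 and 10.9 CPM in C4, against 7.44, 8.00 and 6.51 CPM in B2, and WRKY33 154, 114 and 156 CPM in C4, against 123, 99.4 and 94.8 CPM in B2. The whole WRKY family, listed after its values were seen, had 62 members tested, with a median of -0.05. At an unadjusted p under 0.05, 8 were higher and 5 lower, beside 3.15% and 3.42% of all genes. All C4 libraries lay above B2 in 5 members and below B2 in 7, beside 5.64% and 7.74% of all genes. WRKY40 had 25.9, 11.9 and 33.4 CPM in C4, against 7.17, 3.52 and 8.61 CPM in B2. WRKY31 was among the lower ones, with 70.8, 64.8 and 66.1 CPM in C4, against 89.0, 85.4 and 103.5 CPM in B2.

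Root hair genes were the list furthest in the other direction. Of 18 root hair genes tested, 8 were lower in C4 at an unadjusted p under 0.05 and 0 higher, beside 3.42% and 3.15% of all genes. The median log2 difference was -0.48, and 17 of the 18 differences were below 0. In 9 of them the C4 libraries all lay below the B2 libraries, beside 7.74% of all genes. LRX1, a leucine-rich repeat extensin of the hair wall, had 24.5, 23.5 and 21.7 CPM in C4, against 43.2, 29.3 and 40.3 CPM in B2 (log2 difference -0.69). COW1, a phosphatidylinositol transfer protein needed for hair tip growth, had 12.3, 17.2 and 12.1 CPM in C4, against 18.6, 20.8 and 26.5 CPM in B2 (log2 difference -0.66). EXPA18, an expansin, had 12.8, 14.2 and 12.5 CPM in C4, against 22.01, 15.2 and 18.9 CPM in B2 (log2 difference -0.51). In each of the 3, every C4 library, library 2 included, lay below every B2 library.

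Some other wall genes showed wider gaps. EXT10, an extensin, had 14.3, 11.5 and 10.8 CPM in C4, against 40.5, 16.0 and 22.02 CPM in B2, and XTH13, a xyloglucan-modifying enzyme, had 2.51, 2.26 and 1.95 CPM in C4, against 8.54, 2.74 and 4.34 CPM in B2. In both, library 1 of B2 was the highest by far, and without it 5 of the 18 genes were past that p and the median was -0.42. Without library 3 of C4 there were also 5. The regulators were nearly equal: RHD6 had 13.4, 17.7 and 17.9 CPM in C4, against 16.6, 15.8 and 15.9 CPM in B2, and RSL4 had 8.81, 8.85 and 7.29 CPM in C4, against 8.35, 9.01 and 11.8 CPM in B2. RHD2, the NADPH oxidase of the hair tip, had 61.7, 58.2 and 61.1 CPM in C4, against 70.8, 66.8 and 81.0 CPM in B2.

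Of 5 trichoblast markers, 4 were lower in C4 at an unadjusted p under 0.05, beside 3.42% of all genes. The summed level of the 5 was 82.5 to 97.6 CPM in C4, against 107 to 132 CPM in B2, with none at 0. The root hair list holds all of these markers except COBL9, so the lists are not independent. Of 3 atrichoblast markers, which label the hairless epidermal cells, 0 were past that p, with sums of 22.5 to 25.9 CPM in C4, against 19.9 to 28.0 CPM in B2. Whether the share of hair cells differed between the sampled roots was not tested. Without salt the root hair list had a median of 0.19, and the difference between the line differences had an unadjusted p under 0.05 in 12 of the 18 genes, beside 3.63% of all genes (2.02% in favour of C4 under salt and 1.61% the other way), with 0 adjusted.

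**Figure D4:**
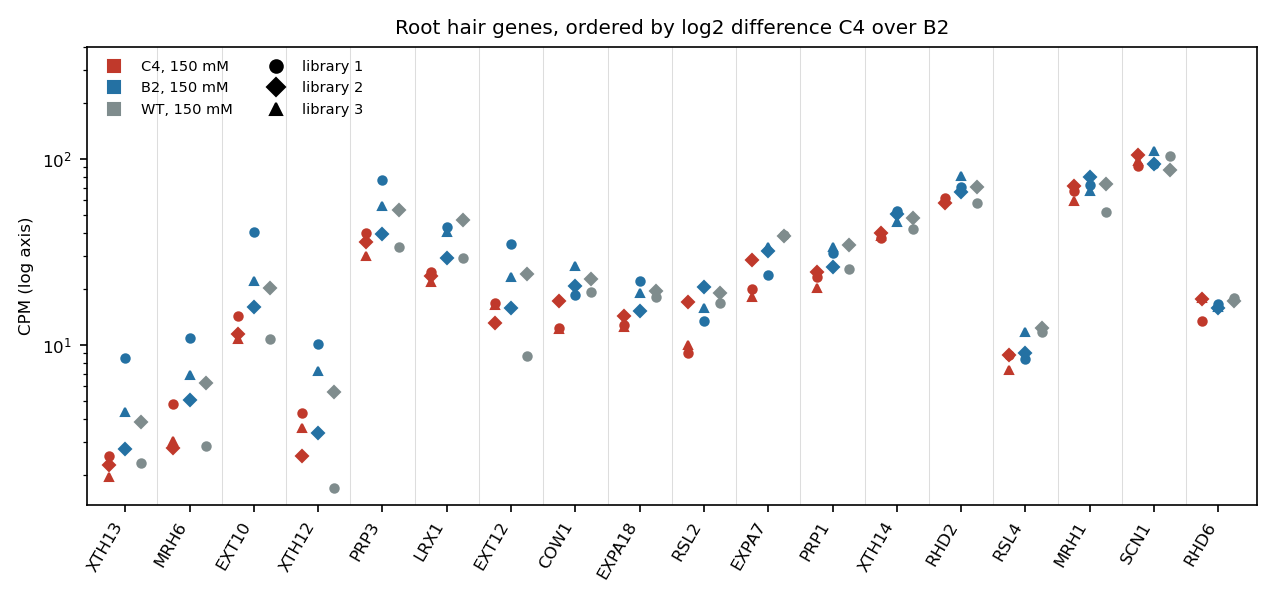
CPM on a log axis of the 18 root hair genes at 150 mM by line (colour) and library (symbol), ordered by the log2 difference of C4 over B2. In 9 genes all 3 C4 libraries lie below all 3 B2 libraries, and library 1 of B2, a blue circle, is the highest for EXT10 and XTH13.

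Uptake and breakdown genes were lower in C4 in small numbers, named after their values were seen. AMT1;2, an ammonium transporter, had 153, 134 and 125 CPM in C4, against 249.9, 234 and 226 CPM in B2 (log2 difference -0.79). PHT1;1, the main phosphate transporter of roots, had 350.1, 358 and 305 CPM in C4, against 527, 546 and 811 CPM in B2 (log2 difference -0.90). ERD5, the proline dehydrogenase that starts proline breakdown, had 385, 475 and 314 CPM in C4, against 523, 817 and 838 CPM in B2 (log2 difference -0.89). In all 3 the lines did not overlap. CKX4, which degrades cytokinin, had 24.7, 22.5 and 20.1 CPM in C4, against 44.0, 45.1 and 46.6 CPM in B2, and ARR7 had 15.6, 19.8 and 11.5 CPM in C4, against 22.04, 22.8 and 25.2 CPM in B2. These belong to lists of 14 nitrate, 16 phosphate, 15 proline and solute, and 16 cytokinin genes. Each list had 2 lower and 0 higher members at an unadjusted p under 0.05, beside 3.42% and 3.15% of all genes. These small counts rested on single libraries: the proline list had 0 lower members without library 1 or 3 of C4 or library 2 or 3 of B2, and 6 without library 1 of B2. The nitrate list had 1 without library 1 or 3 of C4 or library 2 or 3 of B2, the phosphate list 1 without library 3 of C4 and 0 without library 3 of B2, and the cytokinin list 4 without library 2 of C4. The WT libraries at 150 mM were wide apart for CKX4, with 10.8 and 37.7 CPM.

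The core salt and isoprene genes did not separate the lines. Of 31 ABA and dehydration genes, 0 were past an unadjusted p of 0.05 in either direction by edgeR with all libraries. The list median was 0.24, with a range of -0.07 to 0.50 when single libraries were left out: it was -0.07 without library 2 of C4, -0.02 without library 1 of B2, 0.45 without library 1 of C4 and 0.50 without library 2 of B2. RD29A (LTI78), a dehydration marker, had 1024, 2936 and 1632 CPM in C4, against 879, 3177 and 2367 CPM in B2, and RD29B (LTI65) had 71.7, 215 and 142 CPM in C4, against 57.5, 181 and 100.3 CPM in B2. In both lines library 1 was the lowest and library 2 the highest, and the spread within a line was wider than the gap between lines. NCED3, which makes the ABA precursor, had a log2 difference of 0.37 ± 0.47 (SE), and P5CS1, of proline synthesis, 0.31 ± 0.33 (SE).

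The sodium transport genes were closer still. SOS1, the sodium exporter of the plasma membrane, had 48.7, 60.0 and 44.4 CPM in C4, against 53.4, 65.9 and 64.2 CPM in B2 (log2 difference -0.26 ± 0.19 SE). HKT1, which takes sodium back from the xylem, had 11.2, 8.69 and 11.3 CPM in C4, against 9.52, 11.3 and 8.52 CPM in B2 (log2 difference 0.09 ± 0.21 SE). Of 22 sodium and potassium transport genes 0 were past an unadjusted p of 0.05, as were 0 of 13 MEP pathway genes, by edgeR. In the MEP pathway, DXS (CLA1), its first enzyme, had 57.7, 43.0 and 53.1 CPM in C4, against 59.3, 52.4 and 58.2 CPM in B2. DXR, the second, had a log2 difference of 0.09 ± 0.13 (SE), and HDR, the last, which yields dimethylallyl diphosphate, had 180.0, 232 and 168 CPM in C4, against 172, 269 and 275 CPM in B2 (log2 difference -0.30 ± 0.23 SE). RBCS1A, whose promoter drives the transgene, had 29.7, 21.8 and 22.02 CPM in C4, against 15.2, 16.3 and 12.1 CPM in B2, without overlap (log2 difference 0.75 ± 0.37 SE, edgeR adjusted p = 0.769). WT had 58.5 and 44.5 CPM of RBCS1A at 150 mM. Reads of the transgene itself were not analysed here.

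The other lists held few or no members past an unadjusted p of 0.05, beside 6.57% of all genes in either direction. Suberin (17 genes, median log2 difference 0.16) and Casparian strip genes (10 genes, -0.04), which build the barriers of the endodermis, had 0 in either direction, as had PP2C and PYL genes (18 genes, 0.07), hypoxia (14 genes), indole glucosinolate (14 genes), flavonoid (16 genes), cell cycle (18 genes), clock (15 genes) and shoot genes (18 genes). A single member was higher in iron deficiency (17 genes), redox (21 genes), gibberellin (13 genes), ABA and carotenoid synthesis (19 genes) and annexins (5 genes, where it was ANNAT3). A single member was lower in the mevalonate (14 genes), aquaporin (18 genes) and auxin lists (22 genes). The iron gene was NAS2, which makes the metal chelator nicotianamine, with 22.4, 29.97 and 24.1 CPM in C4, against 16.8, 17.8 and 11.5 CPM in B2. The summed markers of the other cell types overlapped between the lines: 289 to 439 CPM in C4 and 325 to 365 CPM in B2 for the endodermis, 341 to 393 CPM in C4 and 327 to 412 CPM in B2 for xylem, and 150.1 to 159 CPM in C4 and 132 to 199 CPM in B2 for shoot. Cortex, stele, root cap, stem cell niche and pericycle sums overlapped too, with 1 root cap marker lower at that p. Pollen or seed markers, 2 of 5 tested, summed to 3.04 to 5.53 CPM in C4, against 2.398 to 2.82 CPM in B2.

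**Figure D5:**
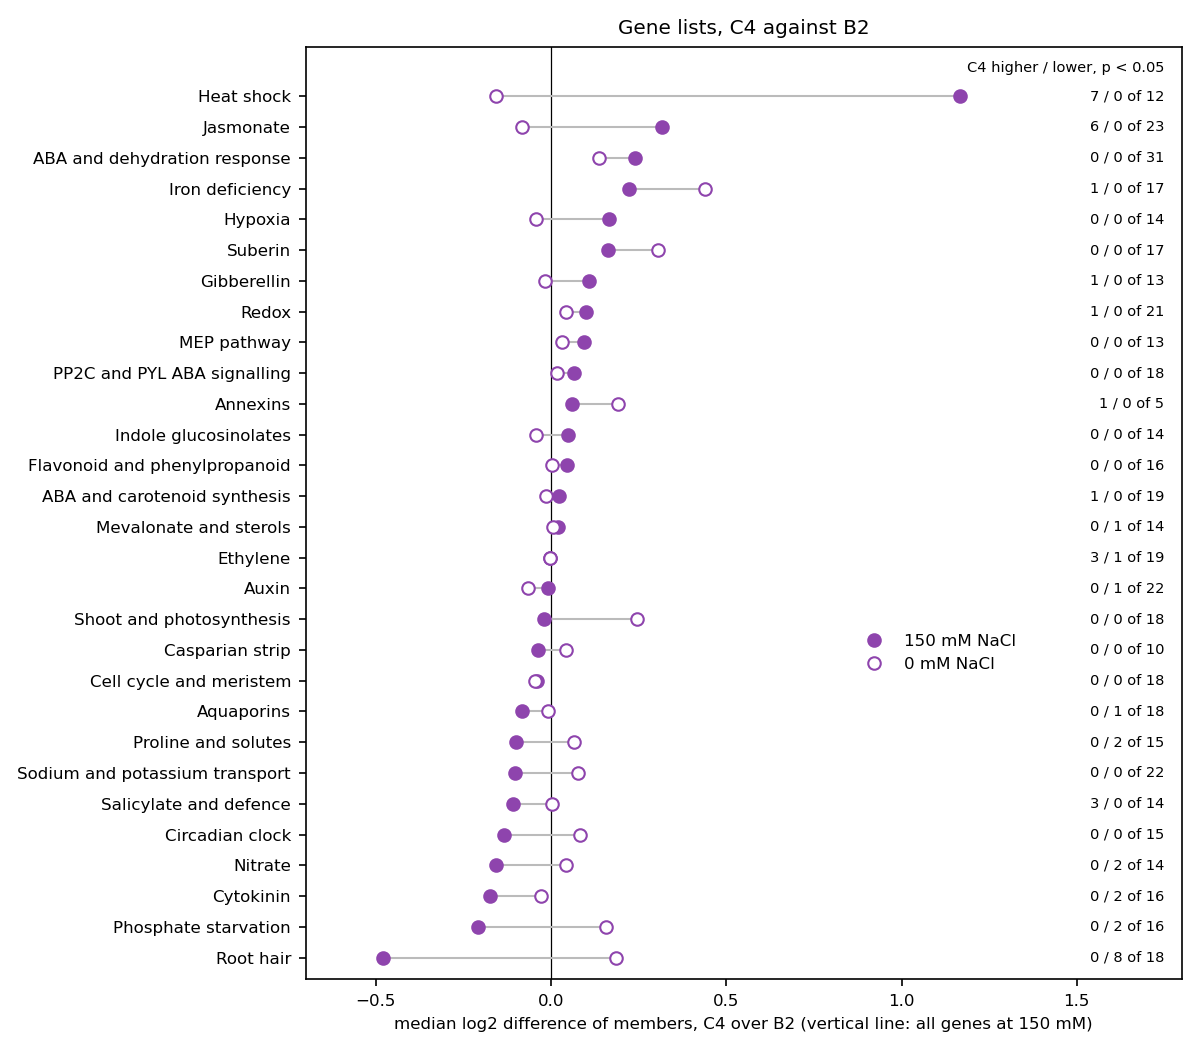
Median log2 difference of C4 over B2 for the members of 29 gene lists at 150 mM (filled) and 0 mM NaCl (open), with the counts of members higher and lower in C4 at an unadjusted p under 0.05 at 150 mM on the right. Heat shock lies at 1.17 and root hair at -0.48 at 150 mM, while at 0 mM they lie at -0.16 and 0.19.

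The response of WT roots to salt gave a list from libraries outside the comparison. Between WT at 150 and 0 mM, edgeR called 1984 genes higher (9.29%) and 1571 lower (7.35%). Between C4 and B2 at 150 mM, the genes that rose in WT had a median log2 difference of 0.05, and those that fell a median of -0.08. Of those that rose, 90 were higher and 11 lower in C4 at an unadjusted p under 0.05. Of those that fell, 36 were higher and 155 lower, beside 3.15% and 3.42% of all genes. All C4 libraries lay above B2 in 153 and below it in 20 of those that rose. For those that fell these counts were 22 and 221, beside 5.64% and 7.74% of all genes. No test was run on these counts. The WT libraries at 150 mM include library 2, which had the MRD1 level of the lines. Without it, a choice made after the data were seen, library 1 alone stood for WT at 150 mM and was assumed to vary like the other groups. Then 1806 genes were called higher and 1669 lower, of which 1510 and 1085 were also called with both libraries, and the median log2 differences of C4 over B2 were 0.09 and -0.15. Summarised per library as the median log2 level above WT at 0 mM, the genes that rose stood at 0.81 ± 0.15 in C4 and 0.75 ± 0.26 in B2 (SD, n = 3 each; exact permutation test, two-sided p = 0.8, the smallest possible being 0.1). The genes that fell stood at -0.71 ± 0.10 in C4 and -0.66 ± 0.20 in B2 (SD, n = 3 each; exact permutation test, two-sided p = 0.9). Library 1 of B2 was the lowest for the genes that rose, at 0.47, and library 2 of each line was the highest, at 0.98. Without library 2 of WT at 150 mM, the genes that rose stood at 0.78 ± 0.14 in C4 and 0.69 ± 0.22 in B2 (exact permutation test, two-sided p = 0.6), and those that fell at -0.63 ± 0.08 in C4 and -0.52 ± 0.13 in B2 (exact permutation test, two-sided p = 0.4). The lines differed by no more than the larger spread within a line in these summaries, and 3 libraries a group cannot pass the threshold in this test.

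Few line differences were shared between the concentrations. At 0 mM, edgeR called 0 genes between C4 and B2, 272 genes (1.27%) were at an unadjusted p under 0.05, and DESeq2 called 1 (0.00435%), AT2G30220, higher in C4. The test of the line difference under salt against that without salt also called 0 genes by edgeR, with 776 (3.63%) at an unadjusted p under 0.05, and DESeq2 called 16 (0.0696%), 13 positive and 3 negative (0.0566% and 0.0131%). Genes in which the lines did not overlap in the same direction at both concentrations numbered 29 higher and 31 lower in C4, out of 593 (2.78%) and 556 (2.6%) at 0 mM. That is 4.89% and 5.58% of the genes without overlap at 0 mM, beside 5.64% and 7.74% of all genes at 150 mM. Without library 3 of B2 at 0 mM the counts were 91 of 1365 (6.67%) and 115 of 1298 (8.86%), so in both cases the shares were near those of all genes. Of the 91 and 115 genes, 15 also differed more than 2-fold at both, and among them only ANNAT3 and the lectin gene AT5G35940 had more than 5 CPM in C4. AT5G35940 had 20.6, 31.6 and 24.8 CPM in C4, against 12.5, 6.95 and 17.2 CPM in B2 at 150 mM. At 0 mM it had 127.6, 44.7 and 25.4 CPM in C4, against 17.5, 21.7 and 75.8 CPM in B2, so the 3 libraries of each line overlap at 0 mM.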

How the data were processed

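Root RNA was made into stranded mRNA libraries and read in pairs. Per the file headers, the authors deposited whole-number counts per gene from featureCounts 2.0.3, which took reads on Araport11 exons with strand setting 2 and a mapping quality of at least 10; the reads of a pair were counted singly and reads with several alignments were left out. Tools named in the submitters' processing notes are STAR 2.7.11a, fastp and FastQC 0.12.1, with TAIR10 as the genome. The deposited gene length, another column, entered no test.

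At 0 mM, WT libraries 1 and 2 differed in only 17 of 24532 genes, which is less than the sampling noise. They were taken as 1 sample by keeping library 1 and removing those 17 genes, which left 17 libraries. The 6 libraries compared had 54233853 to 79589103 counted reads.

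The tests came from edgeR 4.0.16 (R 4.3.3), with TMM scaling, its low-count filter and a robust quasi-likelihood fit of group means. They were two-sided, and Benjamini-Hochberg adjustment ran over 21367 genes at 0.05. An SE is the log2 difference over the square root of F. TMM-scaled library sizes underlie all CPM; their logs had a prior count of 2. The steps were tested on simulated data. Python 3.11.15 with numpy 2.4.6, pandas 2.3.3 and scipy 1.17.1 served for the remaining summaries.

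Of 503 members written in 29 gene lists, 498 were in the table, and 11 marker lists stood beside them. The members and lists were chosen with earlier results of these data known, so counts over them are descriptions. As 0 genes passed, the rule named the 20 genes with the lowest p, and in every case ANNAT3, MRD1, HEI10, RBCS1A, RD29A, RD29B, P5CS1, NCED3, SOS1, HKT1, DXS, DXR and HDR. Any other gene in the text was picked with its values in view. The alternatives were size factors of DESeq2 in edgeR, no filter, DESeq2 1.42.0 in place of edgeR, a fit of the compared groups alone, a fit without the pair of libraries that go against their labels, and fits without each library in turn. For the WT salt list, leaving out library 2 of WT at 150 mM was added after the data were seen.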

Additional observations from a re-analysis of the deposited data

Results flagged for a closer look

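For 6 of the named genes the line difference under salt departed from that without salt. For WRKY30, C4 was higher than B2 at 150 mM in every library and lower at 0 mM in every library, where it had 0.36, 0.59 and 0.48 CPM in C4, against 2.31, 0.61 and 0.81 CPM in B2. The log2 difference between the line differences was 3.59. This contrast did not pass edgeR's adjusted threshold (adjusted p = 0.786), and it passed DESeq2's (adjusted p = 0.000657). DESeq2's test passed for 16 genes in all, among them 5 other named genes, with log2 differences of 4.32 for AT1G05675 (adjusted p = 0.000944), 1.98 for BCS1 (adjusted p = 0.000338), 1.62 for AT5G38310 (adjusted p = 0.00802), 7.09 for BHLH92 (adjusted p = 0.0484) and -1.06 for AT3G12540 (adjusted p = 0.0125). By edgeR, 0 genes passed in this contrast. These genes were named because of their difference at 150 mM, which is a part of the contrast.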

How the results depend on the processing

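At 150 mM edgeR called 0 genes between C4 and B2, and also 0 with size factors of DESeq2 or with no filter. The count was 89 with DESeq2, 1 in a fit of the compared groups alone, 2 without library 3 of B2 at 0 mM and library 2 of WT at 150 mM, and 0 to 37 when single libraries were left out, with 37 reached only without library 2 of C4. At 0 mM it was 0, against 1 with DESeq2, 1 without that pair of libraries and 0 to 1 when single libraries were left out. For the difference between the line differences it was 0, against 16 with DESeq2 and 0 to 7 when single libraries were left out, with 7 reached only without library 2 of C4. The mean SD of log2 ratios within C4 was 0.633, against 0.811 with a prior count of 0.5 and 0.291 over genes with at least 10 CPM. Directions turned for 3 named genes when single libraries were left out: LTI78, at -0.20 with all libraries, ranged over -0.69 to 0.21 and was 0.09 without library 1 of C4. LTI65 ranged over -0.075 to 0.87 around 0.34, and HEI10 over -0.14 to 0.0035 around -0.07. The causes were not tested. Of the named genes' other values, 323 kept direction and side of the threshold, and 35 passed it with the same direction. List medians stayed within 1 SD of the libraries in 329 cases and moved in 12, while the counts of list members at an unadjusted p under 0.05 stayed within 1.5 times in 566 cases and moved further in 116. No paired analysis was possible because the labels give the libraries no shared replicate numbers. At this depth, genes under about 1 CPM have the widest counting error.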
